A study of Mus musculus with 7 samples.

Results

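The 6 transcription factor genes studied direct pancreas and gut development and were looked at in adult mouse liver: Pdx1, Cdx2, Nkx2-2, Nkx6-1, Ptf1a and Neurog3. They were chosen by name and position, with earlier results of these data known. Each was given a point in the genome build mm9, rounded to 10 kb. All islands of H3K27me3 within 50 kb of a point were taken, which gave 87 islands of 122262 in 7 lists, 11 to 14 in each list. The livers came from male CD-1 mice, an outbred stock, aged 7 weeks. The 4 TCPOBOP mice had received 3 mg/kg TCPOBOP, a ligand of the mouse constitutive androstane receptor (CAR) that induces drug-metabolising enzymes in liver. The 3 vehicle mice had received 1% DMSO in corn oil, and all livers were taken 27 h after the injection. Each list came from 1 animal, and the labels gave all 7 libraries the same sequencing lane. The comparison addressed what a CAR ligand did to this mark.

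H3K27me3 is the trimethylation of lysine 27 of histone H3 by Polycomb repressive complex 2, which marks the chromatin of silent developmental genes, often over wide domains and around promoters rich in CG dinucleotides. Pdx1, Cdx2, Nkx2-2 and Nkx6-1 encode homeodomain proteins; Ptf1a and Neurog3 encode basic helix-loop-helix proteins. Liver and pancreas arise from neighbouring endoderm, and these factors act in the pancreas and gut lineages. RNA was not analysed here, so whether the genes were silent in these livers was not tested. An island is a stretch that the caller SICER joined from 400 bp windows with more reads than a random background. The chromatin came from whole liver, so more cells with the mark and more of the mark per cell cannot be told apart. The tissue was not checked against liver marker genes, because the lists hold no RNA and no annotation of mm9 was used here.

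The promoters of all 6 genes were matched in RefSeq (build GRCm38.p6), a later build than that of the islands, so their sequences are shown for what they hold and were not placed on the islands. They held more CG dinucleotides than the median of 7 over 32851 promoters of the same length. The counts were 11 for Pdx1, 17 for Nkx2-2, 18 for Cdx2, 19 for Neurog3, 23 for Ptf1a and 40 for Nkx6-1. At least as many CG were found in 41.4% of all promoters for Pdx1, 31.4% for Nkx2-2, 29.7% for Cdx2, 28.1% for Neurog3, 21.5% for Ptf1a and 3.91% for Nkx6-1. The letters TATAAA were found on neither strand in any of the 6 windows, and on either strand in 13.6% of all promoters. The promoters with the fewest and the most CG, those of Pdx1 (chr5:147269847-147270146, + strand) and Nkx6-1 (chr5:101664662-101664961, - strand), are printed with that of Neurog3 (chr10:62132840-62133139, + strand), whose island had, on average over the livers, the lowest score for its length. All are 5′ to 3′ with each CG in capitals.
Pdx1: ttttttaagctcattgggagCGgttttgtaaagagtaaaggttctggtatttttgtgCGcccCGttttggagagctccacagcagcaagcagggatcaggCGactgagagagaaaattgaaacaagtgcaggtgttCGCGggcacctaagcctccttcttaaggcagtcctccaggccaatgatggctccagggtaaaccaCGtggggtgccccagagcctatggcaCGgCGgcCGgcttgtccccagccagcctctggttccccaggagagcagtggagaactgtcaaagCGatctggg
Nkx6-1: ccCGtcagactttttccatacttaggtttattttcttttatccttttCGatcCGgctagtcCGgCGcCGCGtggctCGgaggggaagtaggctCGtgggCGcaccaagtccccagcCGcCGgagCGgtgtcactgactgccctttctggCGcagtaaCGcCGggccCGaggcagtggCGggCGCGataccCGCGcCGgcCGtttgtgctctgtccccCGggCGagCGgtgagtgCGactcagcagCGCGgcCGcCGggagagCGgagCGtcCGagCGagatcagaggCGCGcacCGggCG
Neurog3: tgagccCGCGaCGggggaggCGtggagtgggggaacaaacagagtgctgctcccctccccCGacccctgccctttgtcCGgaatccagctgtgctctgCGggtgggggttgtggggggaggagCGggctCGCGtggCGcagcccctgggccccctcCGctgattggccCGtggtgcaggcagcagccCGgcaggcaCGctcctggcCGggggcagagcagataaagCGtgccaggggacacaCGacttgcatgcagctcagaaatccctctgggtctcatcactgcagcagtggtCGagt

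The lists held 16481 to 20550 islands in TCPOBOP livers and 14167 to 17852 in vehicle livers, over 537 to 605 Mb of the genome in TCPOBOP livers and 537 to 587 Mb in vehicle livers. Vehicle replicate 1 stood apart, with the fewest islands and a median island width of 31.2 kb, against 20.8 to 23.6 kb in TCPOBOP livers and 23.6 and 24.4 kb in the other vehicle livers. TCPOBOP replicate 2 and vehicle replicate 2 also differed from the rest. Each had 537 Mb under islands, against 583 to 605 Mb in the other lists. Their median scores per 400 bp window were the highest, 3.05 and 3.02, against 2.56 to 2.79. The lists gave no read numbers, so the depth behind each island is unknown here. The score of an island grows with its length and with depth, and was used only within its own list. It is given as a rank or, per 400 bp window, as a multiple of the list's median. Whether that multiple still depends on depth was not tested.

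All 6 points lay under an island in all 7 livers. Over the genome, the midpoints of 2578 of 26311 windows of 100 kb, or 9.8%, lay under an island in all 7 livers. These windows were laid end to end over all chromosomes and not at genes. The loci were chosen with earlier results of these lists known. Presence and cover beside these windows therefore describe the loci and were not tested. Of each locus window, the 100 kb around its point, islands covered on average over the 7 livers 98.5 kb at Pdx1, 94.2 kb at Neurog3, 86.0 kb at Nkx6-1, 85.2 kb at Cdx2, 77.2 kb at Ptf1a and 75.9 kb at Nkx2-2. The median window of the genome had 5.77 kb. Windows with at least as much cover made up 0.483% of the genome's windows for Pdx1, 2.02% for Neurog3, 4.96% for Nkx6-1, 5.20% for Cdx2, 8.02% for Ptf1a and 8.49% for Nkx2-2.

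**Figure D1:**
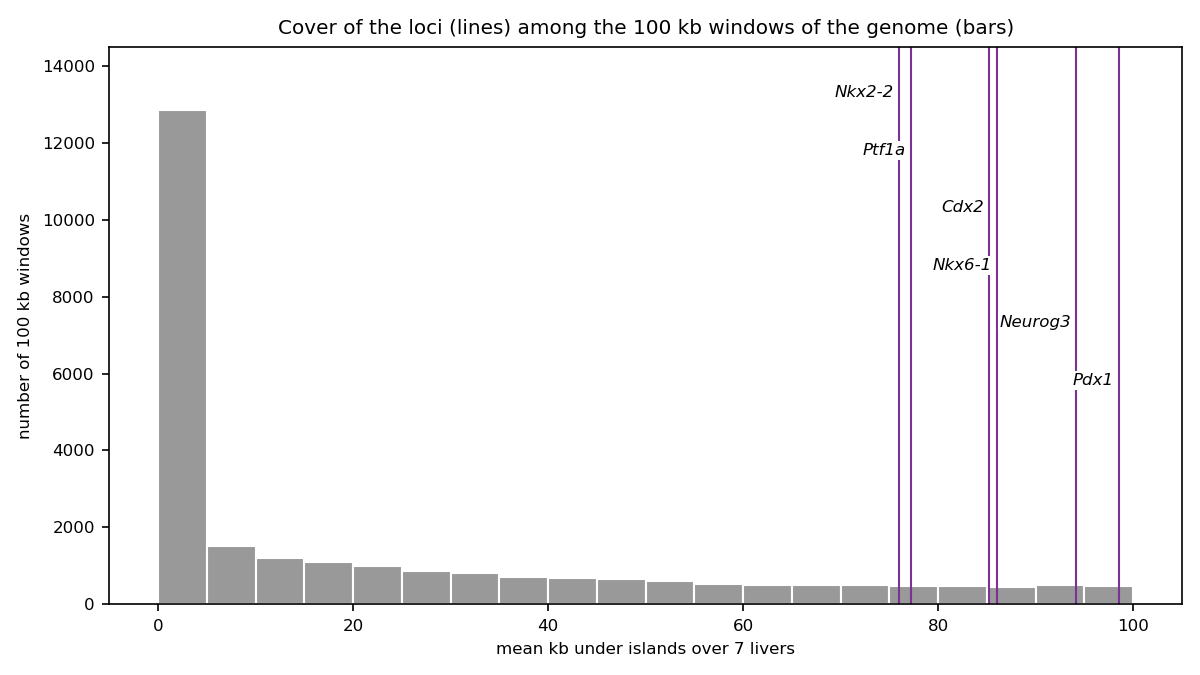
Mean kb under islands over 7 livers in 100 kb windows of the genome (grey bars, number of windows per 5 kb of cover) and in the windows of the 6 loci (purple lines). The 6 loci lie between 75.9 and 98.5 kb, and the median window has 5.77 kb.

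Pdx1, needed for the pancreas to form and later for insulin-producing beta cells, and Cdx2, which sets intestinal identity, are neighbours on chromosome 5, with Gsx1 on the far side of Pdx1 and Urad and Flt3 beyond Cdx2 in RefSeq gene order. Their points lay under the same island in 7 of 7 livers, and their windows share 70 kb, so the 2 loci are not independent. This island was 168.4, 165.2, 195.2 and 166.8 kb wide in TCPOBOP replicates 1 to 4, against 89.6, 168.0 and 196.4 kb in vehicle replicates 1 to 3. The narrow one, in vehicle replicate 1, was cut off from the stretch to its left by a break that the other 6 lists did not have. That stretch was an island of 115.6 kb ending at 148036400, and the narrow island began at 148039601. The mean width differed by 22.6 kb (TCPOBOP minus vehicle) with vehicle replicate 1 and by -8.30 kb without it. The islands of the 7 lists joined into a region of 209.6 kb. Islands covered 192.6 ± 2.62 kb of it in TCPOBOP livers (SD, n = 4) and 198.1 ± 6.38 kb in vehicle livers (SD, n = 3). The stretch from 148039601 to 148128000 was under the island in all 7 livers.

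The Pdx1 and Cdx2 island was among the highest scored of its lists. It ranked 33, 41, 24 and 21 by score in TCPOBOP replicates 1 to 4 and 179, 43 and 22 in vehicle replicates 1 to 3. Its score percentile, the share of islands in the list that scored no higher, was 99.8 ± 0.0599 in TCPOBOP livers (SD, n = 4) and 99.5 ± 0.621 in vehicle livers (SD, n = 3). Its score per 400 bp window, which sets its length aside, was 2.66 to 3.55 times the median of its list in TCPOBOP livers and 2.76 to 3.78 times in vehicle livers. Vehicle replicate 1, where the island ranked lowest by score, did not stand apart on this scale, at 2.90 times its median.

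Around Pdx1, islands covered 99.2, 98.0, 98.0 and 99.2 kb of the window in TCPOBOP replicates 1 to 4, against 96.0, 100 and 99.2 kb in vehicle replicates 1 to 3. The lowest and the highest value were both of vehicle livers. The difference was 0.200 kb (SE 1.77; 95% interval -3.92 to 4.32 kb; limma adjusted p = 1). It was -1 kb without vehicle replicate 1 and 1 kb without vehicle replicate 2. Around Cdx2, islands covered 69.2, 88.0, 80.8 and 92.4 kb in TCPOBOP replicates 1 to 4, against 78.8, 94.8 and 92.4 kb in vehicle replicates 1 to 3. These groups overlapped too, and the lowest value, of TCPOBOP replicate 1, came with no island for 32.0 kb after the end of the shared one. The difference was -6.07 kb (SE 6.47; 95% interval -21.2 to 9.03 kb; limma adjusted p = 1). It was -1.60 kb without TCPOBOP replicate 1 and -11.0 kb without vehicle replicate 1.

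The right end of the shared island fell within 2.4 kb in all 7 livers, between 148128000 and 148130400, which is 18.0 to 20.4 kb beyond the Cdx2 point. No list had an island from 148130401 to 148133200. Beyond that, the lists differed: a small island of 10.4 to 13.6 kb followed in TCPOBOP replicates 2, 3 and 4 and in vehicle replicate 3, a wide one of 93.6 kb in vehicle replicate 2, and none for 32.0 kb in TCPOBOP replicate 1 and for 21.2 kb in vehicle replicate 1. The small islands were low in rank, with score percentiles of 4.38, 26.9 and 29.6 in TCPOBOP replicates 2 to 4 and 18.0 in vehicle replicate 3.

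**Figure D2:**
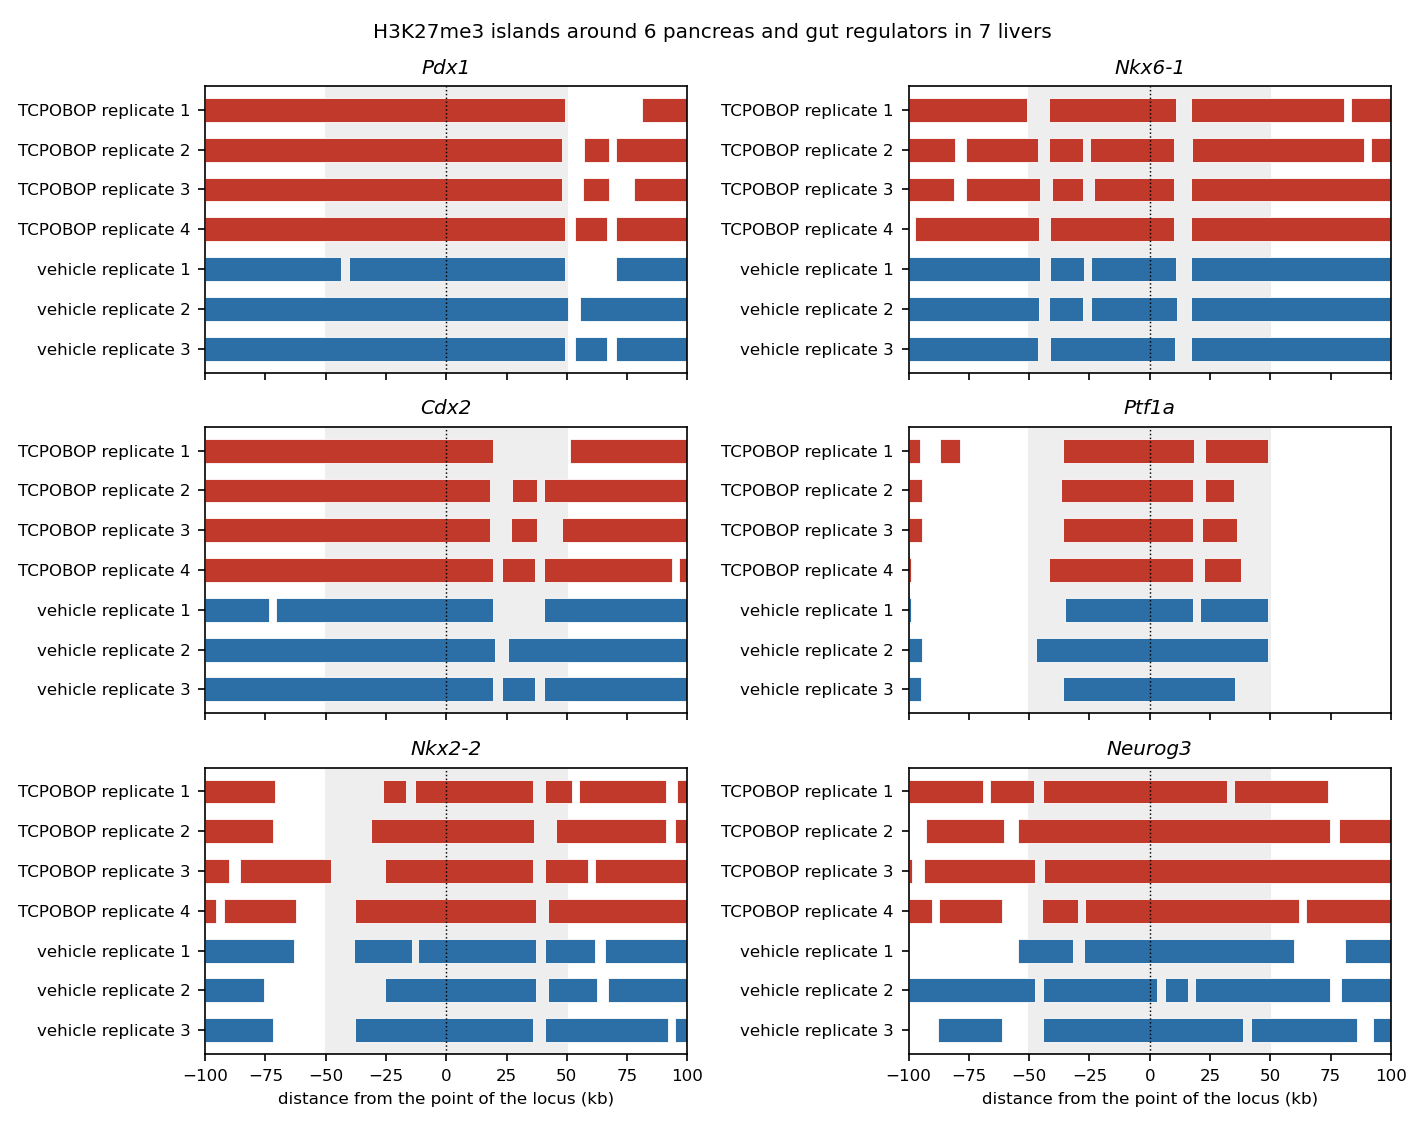
Islands (bars) in each liver within 100 kb of the point of each locus (dotted line), with the 100 kb window shaded; TCPOBOP livers are red and vehicle livers blue. Every point lies under an island in all 7 livers, and breaks recur at the same distance in all livers to the right of Cdx2, Nkx2-2 and Nkx6-1.

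Nkx2-2, a homeodomain factor of endocrine pancreas and of the ventral neural tube, lies on chromosome 2, with Nkx2-4 and Pax1 as the nearest protein-coding genes and Foxa2 beyond Pax1 in RefSeq gene order. Its island was 48.8, 67.6, 61.6 and 75.2 kb wide in TCPOBOP replicates 1 to 4, against 48.8, 62.8 and 74.0 kb in vehicle replicates 1 to 3. The narrowest in each group had a further small island to its left, of 9.6 kb in the TCPOBOP liver and 24.0 kb in the vehicle liver. The right end lay between 147046000 and 147047200 in all 7 livers, a range of 1.2 kb, and the left end moved over 26.4 kb. No list had an island from 147047201 to 147050800, nor from 146962001 to 146971600, so the Nkx2-2 islands of the 7 lists formed a region of 75.6 kb between breaks that all livers shared.

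Islands covered 67.6, 72.0, 72.8 and 83.2 kb of the Nkx2-2 window in TCPOBOP replicates 1 to 4, against 82.0, 70.8 and 83.2 kb in vehicle replicates 1 to 3. The highest value, 83.2 kb, occurred in both groups. Cover averaged 73.9 ± 6.61 kb in TCPOBOP livers (SD, n = 4) and 78.7 ± 6.84 kb in vehicle livers (SD, n = 3). The difference of -4.77 kb was within that spread (SE 5.44; 95% interval -17.5 to 7.92 kb; limma adjusted p = 1). The direction turned under other settings: the difference was 0.100 kb with windows reaching 100 kb to each side and 1.97 kb with islands of at least the median score. It was -8.70 kb without vehicle replicate 2 and -2.50 kb without vehicle replicate 3. The island over the point ranked 568, 432, 683 and 385 by score in TCPOBOP replicates 1 to 4, and 650, 416 and 412 in vehicle replicates 1 to 3, and its score percentile was between 95.4 and 97.9 in all lists.

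Nkx6-1, a homeodomain factor that beta cells need and that also patterns the ventral neural tube, lies on chromosome 5. Its point lay under an island of 52.4, 34.8, 33.2 and 51.2 kb in TCPOBOP replicates 1 to 4, against 35.2, 35.6 and 51.6 kb in vehicle replicates 1 to 3. The widths fell into 2 ranges, 51.2 to 52.4 kb and 33.2 to 35.6 kb, each with livers of both groups. They differ by a break left of the point that 4 of the 7 lists had. The right end lay between 102100000 and 102101200 in all lists. No list had an island from 102101201 to 102107200, and the next island began at 102107201 in 6 of 7 lists and 1 window later in TCPOBOP replicate 2. A second shared break lay to the left, from 102044401 to 102048400.

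On average over the livers, the Nkx6-1 island was the narrowest over the 6 points, though it was wider than the median island of each list. It had a high score for its length. Its score per window was 2.61, 4.77, 3.65 and 3.96 times the median of the list in TCPOBOP replicates 1 to 4, and 3.01, 5.71 and 3.72 times in vehicle replicates 1 to 3. Its percentile on that scale was 98.0 in TCPOBOP replicate 1 and between 99.4 and 99.7 in the other 6 livers. By total score it ranked 622, 694, 918 and 349 in TCPOBOP replicates 1 to 4, and 1128, 534 and 335 in vehicle replicates 1 to 3. The island beyond the right break scored higher than the one over the point in all 7 lists. That neighbour was 63.2, 71.2, 154.0 and 153.2 kb wide in TCPOBOP replicates 1 to 4 and ranked 472, 576, 40 and 44, against 154.0, 156.0 and 153.6 kb and ranks of 62, 62 and 35 in vehicle replicates 1 to 3. In TCPOBOP replicates 1 and 2 the same stretch was split into 2 islands.

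Cover of the Nkx6-1 window varied little between livers. It was 85.2, 84.8, 83.2 and 88.0 kb in TCPOBOP replicates 1 to 4, against 86.4, 86.4 and 88.0 kb in vehicle replicates 1 to 3. The groups overlapped, with 88.0 kb the highest in each. The difference was -1.63 kb (SE 2.68; 95% interval -7.86 to 4.59 kb; limma adjusted p = 1), and 1.00 kb with islands of at least the median score. It was -0.933 kb without TCPOBOP replicate 3 and -2.53 kb without TCPOBOP replicate 4.

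Ptf1a, a basic helix-loop-helix factor of the exocrine pancreas that is also needed in the cerebellum and retina, lies on chromosome 2 between Msrb2 and Otud1, with an uncharacterised gene next to it. Here the islands stood alone. In all lists they lay between 19322801 and 19419200, a region of 96.4 kb, with none elsewhere in the window. The stretch from 19334801 to 19388000 was under the island in all 7 livers. In 5 of 7 livers the island over the point ended at or within 1 window of 19388000 and a smaller island of 12 to 28.4 kb followed after a break of 2.8 to 4.8 kb. In vehicle replicates 2 and 3 there was no such break, and a single island ran on to 19419200 in vehicle replicate 2 and to 19405200 in vehicle replicate 3. All 4 TCPOBOP livers had the break, and so did vehicle replicate 1.

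The Ptf1a island was thus 54.4, 54.8, 54.0 and 59.6 kb wide in TCPOBOP replicates 1 to 4, against 53.2, 96.4 and 71.2 kb in vehicle replicates 1 to 3. Vehicle livers held both the narrowest and the widest. Islands covered 80.8, 66.8, 68.4 and 75.2 kb of the window in TCPOBOP replicates 1 to 4, against 81.6, 96.4 and 71.2 kb in vehicle replicates 1 to 3. Cover averaged 72.8 ± 6.46 kb in TCPOBOP livers (SD, n = 4) and 83.1 ± 12.7 kb in vehicle livers (SD, n = 3). The difference of -10.3 kb did not pass the test (SE 6.77; 95% interval -26.1 to 5.53 kb; limma adjusted p = 1). It was -3.60 kb without vehicle replicate 2 and -16.2 kb without vehicle replicate 3, where the 95% interval ran from -31.8 to -0.578 kb but the limma adjusted p was again 1. The island ranked between 426 and 685 by score in all lists. Its score percentile was 95.8 to 97.3 in TCPOBOP livers and 96.1 to 97.6 in vehicle livers.

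Neurog3, the basic helix-loop-helix factor that starts endocrine differentiation in pancreas and gut, lies on chromosome 10 between Fam241b and Tspan15. Its surroundings differed in form from those of the other genes. The islands of the 7 lists joined into a region of 604 kb, from 61205201 to 61809200, that was broken at different places in different livers and held 75 islands over the 7 lists. The island over the point was 76.4, 129.6, 150 and 88.8 kb wide in TCPOBOP replicates 1 to 4, against 87.2, 47.6 and 83.2 kb in vehicle replicates 1 to 3. The widest were in TCPOBOP livers and the narrowest in vehicle replicate 2, and the groups overlapped. The right end ranged over 102.8 kb. In vehicle replicate 2 it lay 3.2 kb from the point, less than the 10 kb to which the point is given.

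Islands covered 93.6, 100, 96.4 and 92.0 kb of the Neurog3 window in TCPOBOP replicates 1 to 4, against 95.2, 90.8 and 91.2 kb in vehicle replicates 1 to 3. The lowest TCPOBOP liver lay within the range of the vehicle livers. The difference was 3.10 kb (SE 2.64; 95% interval -3.06 to 9.26 kb; limma adjusted p = 1). It was 1.60 kb without TCPOBOP replicate 2 and 4.5 kb without vehicle replicate 1. With islands of at least the median score it was 11.8 kb (95% interval 1.95 to 21.7 kb; limma adjusted p = 1). The score percentile of the island over the point was 96.3, 98.4, 98.2 and 96.8 in TCPOBOP replicates 1 to 4, against 95.8, 93.4 and 96.1 in vehicle replicates 1 to 3. All 4 TCPOBOP livers were above all 3 vehicle livers, by 2.33 percentile points on average, and by 1.47 points without vehicle replicate 2. For its length, the island's score was in the other order: its percentile by score per window was 86.7 ± 5.98 in TCPOBOP livers (SD, n = 4) and 91.5 ± 3.71 in vehicle livers (SD, n = 3), with overlap between the groups.

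**Figure D3:**
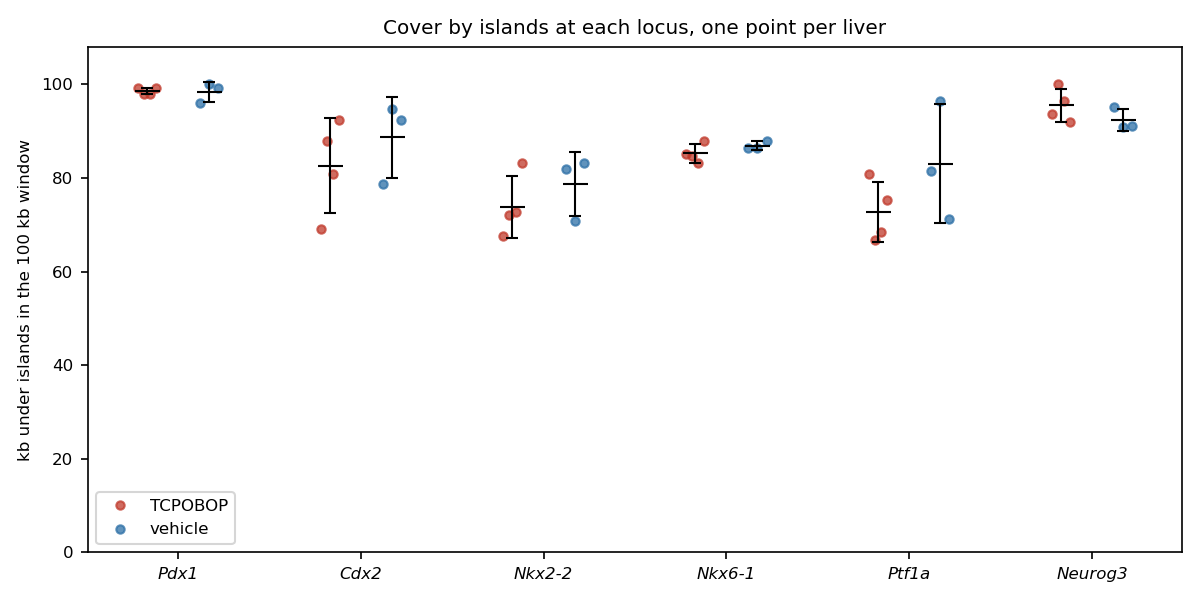
Kb under islands in the 100 kb window of each locus, 1 point per liver, with the mean and SD (black) of 4 TCPOBOP livers (red, left) and 3 vehicle livers (blue, right). The groups overlap at all 6 loci, and single livers run from 66.8 kb at Ptf1a to 100 kb at Pdx1 and Neurog3.

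No difference in cover between TCPOBOP and vehicle livers passed the test at the 6 loci. Cover could not exceed the 100 kb of the window, and vehicle livers averaged 98.4 kb at Pdx1 and 92.4 kb at Neurog3. At Pdx1 and Neurog3 the measure therefore had little room for a gain. All 6 windows passed the filter on low cover and entered the limma fit, and 0 of 6 had an adjusted or an unadjusted p under 0.05. Under other settings, 4 of 83 fits of a locus had an unadjusted p under 0.05 and 0 an adjusted one. Over the genome, 0 of 14388 windows tested (0%) had an adjusted p under 0.05 with limma, and 534 (3.71%) had an unadjusted p under 0.05. The groups did not overlap in cover at 0 of 6 loci, against 553 of 14388 windows (3.84%) over the genome. The median standard error over the genome was 7.78 kb, against 1.77 to 6.77 kb at the 6 loci. The widest 95% interval, at Ptf1a, ran from -26.1 to 5.53 kb. Those at Cdx2, from -21.2 to 9.03 kb, and at Nkx2-2, from -17.5 to 7.92 kb, were also wide. Even the difference of -10.3 kb at Ptf1a was not called, so changes of that size could go undetected.

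The islands over the points gave similar counts. The groups did not overlap in island width at 0 of 6 loci, against 4.93% of 2578 window midpoints under an island in all livers. An island wider than 100 kb can lie over more than 1 of these midpoints. They did not overlap in score percentile at 1 of 6 loci, Neurog3, against 4.31%, and in score per window at 0 of 6, against 3.69%. With 6 loci, of which Pdx1 and Cdx2 have the same island, nothing is read from a count of 1 beside that background.

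**Figure D4:**
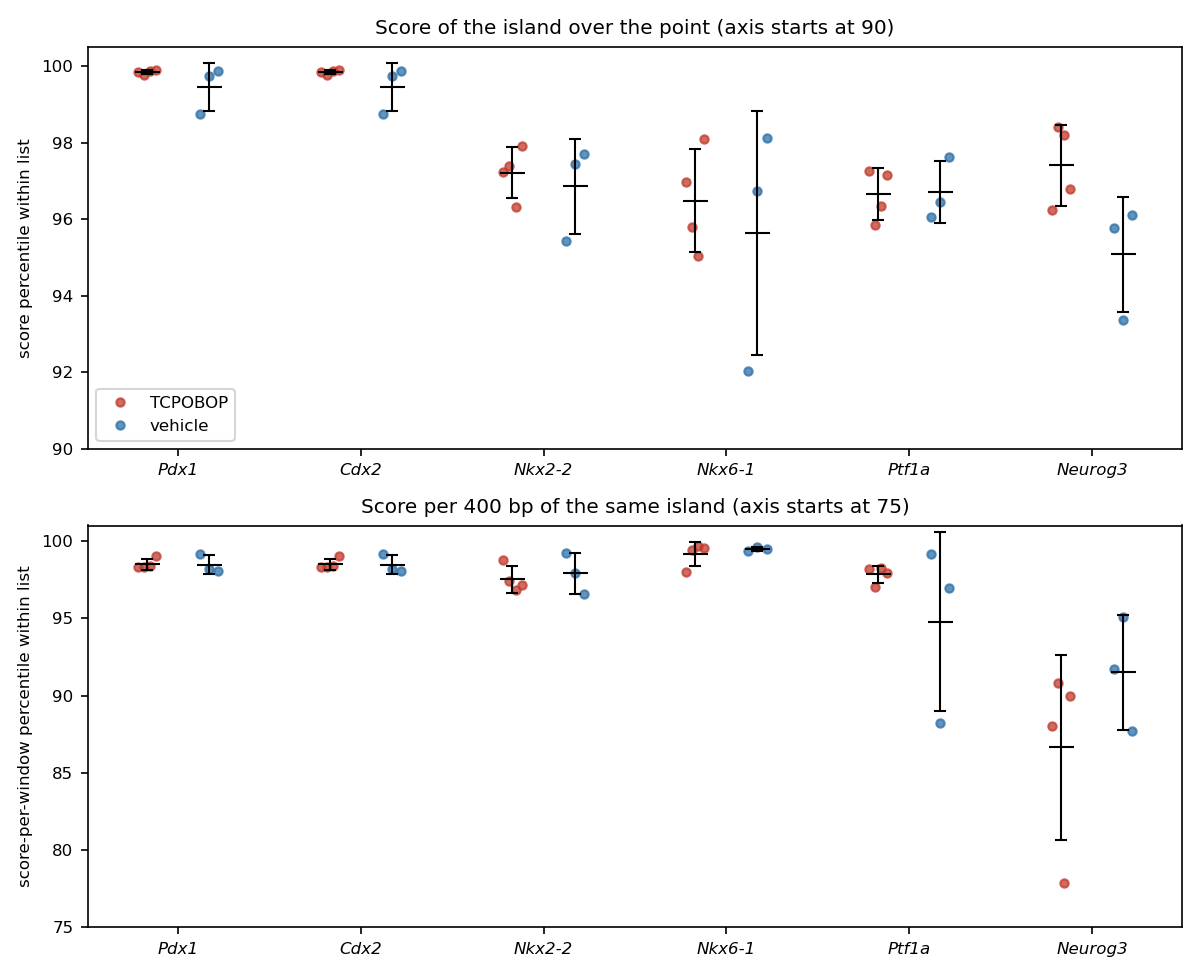
Percentile, within its own list, of the score (upper) and of the score per 400 bp (lower) of the island over each point, 1 point per liver, with mean and SD; TCPOBOP livers are red and left, vehicle livers blue and right. The shared Pdx1 and Cdx2 island has score percentiles of 98.7 and above, and the lowest percentile per 400 bp is 77.9, of the Neurog3 island in TCPOBOP replicate 3.

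At 4 of the 6 loci the islands had, in both groups, a high score for their length and a right end at nearly the same place. The percentile by score per window was 90 or higher in all 7 livers at Pdx1, Cdx2, Nkx2-2 and Nkx6-1. That is 4 of 6 loci or 3 of 5 separate islands, against 9.43% of 2578 window midpoints under an island in all livers. Those midpoints were not reduced to separate islands, so a wide island can count more than once among them. At Ptf1a it was 88.2 in vehicle replicate 2 and 97.0 to 99.2 in the other livers, and at Neurog3 it ran from 77.9 to 95.1. The right end lay within 2.4 kb in all 7 livers at 4 of 6 loci, or 3 of 5 islands, against 8.46% of those midpoints. The left end did so at 0 of 6 loci, against 8.03%. These shares describe the loci beside the genome and were not tested, since the loci were chosen with results of these lists known.

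By the extent common to all livers, Pdx1 came first, with 94.8 kb of its window under islands in all 7 lists. Nkx6-1 had 78.4 kb, Neurog3 76.8 kb, Cdx2 68.0 kb, Ptf1a 65.2 kb and Nkx2-2 60.8 kb. The window around Pdx1 and that around Neurog3 had no stretch free of islands in all 7 livers. The others had 2.8 kb at Cdx2, 3.6 kb at Ptf1a, 10.0 kb at Nkx6-1 and 13.2 kb at Nkx2-2.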

How the data were processed

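H3K27me3 was measured by chromatin immunoprecipitation and sequencing in 7 livers. The submitters' processing notes name an aligner, Bowtie2 (version 2.3.2), an island caller, SICER (version 1.1), and the build mm9. The deposited values are 1 list of islands per liver, not pooled, with the caller's score for each island; the settings given with the lists are 400 bp for the window, 2400 bp for the largest gap bridged and 100 for the E-value. Use of an input control and treatment of duplicates are not given in the sources used here. Depth is unknown, and scores were read only within a list.

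Windows of 50 kb to each side of each point, and windows of 100 kb laid end to end over the genome, were scored for the fraction under islands. Fractions were compared with limma 3.58.1 (R 4.3.3; trend and robust variance), without covariates, in windows with an island in at least 2 livers and unequal cover, with Benjamini-Hochberg adjustment over all windows tested and a threshold of 0.05. The step was tested on simulated data. The changes planted there were larger than any difference in cover at the 6 loci. Whether differences of the size seen at the loci would be found was not tested. Tables were made with Python 3.11.15, NumPy 2.4.6 and pandas 2.3.3. Groups came from the titles; p-values measure the spread between animals. All 6 genes of the rule were named. The members and the lists were chosen with earlier results of these data known. A list of other pancreas and gut regulators, and liver marker genes, were planned only for an annotation of mm9 and were not analysed here; the points were not checked against one either. Alternatives were another variance model, a replicate block, a score filter, lists of equal length, other window sizes, merged regions, an exact permutation test and leaving out each liver.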

Additional observations from a re-analysis of the deposited data

Results flagged for a closer look

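Among 24 measures of the 4 TCPOBOP livers at the 6 loci (cover, width, score percentile and percentile by score per window), 6 had 1 liver far from the other 3, of which 4 come from the single island over Pdx1 and Cdx2, counted once for each gene. Chance would put about 1 in 20 there for independent and normally distributed values. These measures are linked and some are percentiles near their upper limit, so 6 of 24 is not read as an excess. The Pdx1 and Cdx2 island was 195.2 kb wide in TCPOBOP replicate 3, against 165.2 to 168.4 kb in the other TCPOBOP livers; vehicle replicate 3 had 196.4 kb. Its percentile by score per window was 99.0 in TCPOBOP replicate 4, against 98.3 to 98.4 in the other TCPOBOP livers and 98.1 to 99.2 in vehicle livers. The Nkx6-1 island had a percentile by score per window of 98.0 in TCPOBOP replicate 1. The other TCPOBOP livers had 99.4 to 99.7 and vehicle livers 99.4 to 99.6. The Ptf1a island was 59.6 kb wide in TCPOBOP replicate 4, against 54.0 to 54.8 kb in the other TCPOBOP livers and 53.2 to 96.4 kb in vehicle livers.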

How the results depend on the processing

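All 6 loci kept an island in all 7 livers when at least 10 kb of the window had to be covered and when only islands of at least the median score were used. No setting called a window at a locus or elsewhere (0 windows in each limma fit; 290 to 942 at an unadjusted p under 0.05). Of 77 cover differences under alternatives that can change them, 67 kept their direction, 3 were 0, all at Pdx1, and 7 turned. Pdx1 turned to -5.30 kb with 100 kb to each side and -5.53 kb with merged regions. Nkx2-2 turned to 1.97 kb with islands of at least the median score, 0.100 kb with 100 kb to each side and 4.20 kb with merged regions, and Nkx6-1 to 1.00 kb with islands of at least the median score. The cause was not tested. With 25 kb to each side the Pdx1 window was fully covered in all livers and gave no value. Leaving out 1 liver moved the difference between -1 and 1 kb at Pdx1 (-1 without vehicle replicate 1), -11.0 and -1.60 kb at Cdx2, -8.70 and -2.50 kb at Nkx2-2, -2.53 and -0.933 kb at Nkx6-1, -16.2 and -3.60 kb at Ptf1a, and 1.60 and 4.5 kb at Neurog3. The single-locus exact permutation test, two-sided, gave p from 0.200 at Ptf1a to 1 at Pdx1; its smallest possible p is 0.0286. Windows whose groups did not overlap numbered 365 of 10389 (3.51%) with islands of at least the median score, 294 of 8561 (3.43%) with 100 kb to each side and 818 of 23829 (3.43%) with 25 kb, against 553 of 14388 (3.84%). With 1 liver left out there were 926 to 1817 (6.57% to 12.8%); fewer livers overlap less often by construction. With the replicate block, where TCPOBOP replicate 4 has no partner, the differences were 0 kb at Pdx1, -9.33 kb at Cdx2, -7.87 kb at Nkx2-2, -2.53 kb at Nkx6-1, -11.1 kb at Ptf1a and 4.27 kb at Neurog3, and no call changed. The 4 limma fits of a locus with an unadjusted p under 0.05 were Cdx2 with the replicate block (0.0434), Neurog3 with islands of at least the median score (0.0254), Ptf1a with 25 kb to each side (0.0334) and Ptf1a without vehicle replicate 3 (0.0441); their adjusted p ran from 0.935 to 1. Neurog3 differed by 19.8 kb with 100 kb to each side and 27.3 kb with merged regions, which are longer than the 100 kb window. Same-numbered livers had correlations of deviations from the group means of 0.0753, 0.384 and 0.110, and TCPOBOP replicate 1 correlated best with vehicle replicate 3, so the numbers were not taken as pairs. Leaving out each liver for widths and score percentiles was added after the data were seen.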
